A study of Homo sapiens with 4 samples.

Results

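The regions described here are intronic ATAC-seq peaks of C4-2B cells for which C4-2BER cells had no overlapping peak. They were chosen by the peak lists themselves. A peak of the C4-2B list was taken when it shared no base with any C4-2BER peak, when its midpoint lay over 2000 bp from every transcription start site (TSS) of a protein-coding gene, and when that midpoint fell inside the body of a protein-coding gene but outside its exons. This left 24452 peaks out of 149676 in the C4-2B list and 268404 in both lists. They are called lost intronic peaks below, as a name for the overlap rule. Kept intronic peaks are the 32408 C4-2B peaks that met the same position rule and overlapped a C4-2BER peak. Gained intronic peaks are the 9159 intronic C4-2BER peaks without a C4-2B overlap.

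C4-2B is a human prostate adenocarcinoma cell line that responds to androgen. C4-2BER is its derivative, raised under continuous enzalutamide, an inhibitor of the androgen receptor, and is labelled as neuroendocrine-like. Each line is a single culture model with 2 libraries, so the comparison is between a parental line and a line derived from it. By the methods of the study, C4-2BER cells lack androgen receptor expression and have lost expression of RB1. In ATAC-seq a transposase cuts accessible DNA and leaves sequencing adapters there, so read pile-ups mark open chromatin. The libraries of a line were merged before peaks were called, so each line has 1 peak list, there is no replicate error and no test between the lines was possible. The intervals given with shares are 95% Wilson intervals and cover counting error only.

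The androgen receptor is a nuclear hormone receptor. After binding androgen it sits on DNA mostly far from promoters, often in introns, at a palindrome of AGAACA-like repeats called the androgen response element. Forkhead factors such as FOXA1 open chromatin for it in luminal prostate cells. FKBP5, TMPRSS2, PMEPA1 and SLC45A3 are textbook androgen-responsive genes, and neuroendocrine prostate cancer is known for reduced androgen receptor signalling and for expression of neuronal genes.

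Sequences of lost intronic peaks with such an element are shown first, because, of the 20 motifs searched, this one had the highest ratio of its share in lost to its share in kept intronic peaks, 3.04, and in gained ones, 12.6. The stretches are the reference sequence of hg38 around the summit on the forward strand, from 4 of the strongest lost intronic peaks with an element within 100 bp of the summit. Capitals mark the letters that match GNACANNNTGTNC and, in ASIP, a forkhead match as well.
FKBP5, chr6:35611021-35611118: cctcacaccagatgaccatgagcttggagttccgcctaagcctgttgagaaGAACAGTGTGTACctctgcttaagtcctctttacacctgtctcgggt
ASIP, chr20:34264236-34264376: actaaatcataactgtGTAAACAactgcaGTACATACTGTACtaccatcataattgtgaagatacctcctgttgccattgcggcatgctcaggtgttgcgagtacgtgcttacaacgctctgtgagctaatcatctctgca
MCF2L2, chr3:183370934-183371035: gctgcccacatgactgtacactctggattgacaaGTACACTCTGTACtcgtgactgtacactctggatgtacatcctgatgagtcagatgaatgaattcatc
ELF2, chr4:139127026-139127129: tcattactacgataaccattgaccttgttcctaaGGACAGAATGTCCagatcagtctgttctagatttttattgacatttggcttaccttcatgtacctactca
For contrast, the strongest kept intronic peak of FKBP5 also holds a match, with other letters.
FKBP5 kept, chr6:35602003-35602103: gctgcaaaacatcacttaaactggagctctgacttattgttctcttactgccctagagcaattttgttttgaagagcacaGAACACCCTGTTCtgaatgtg

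Intronic peaks made up a large part of what C4-2BER lacked. Of all C4-2B peaks, 37.7% had no C4-2BER overlap. The share was 43.0% (95% interval 42.6 to 43.4) among intronic peaks and 34.5% among the other C4-2B peaks. In the reverse direction, 21.7% of intronic C4-2BER peaks had no C4-2B overlap. These shares follow from the rule and from the peak threshold and are given as the background for all counts below. The reads recovered from the peak values gave C4-2B a depth 1.20 times that of C4-2BER. With C4-2B reads scaled to the C4-2BER depth, 24395 lost peaks remained, 43.0% of the intronic C4-2B peaks left. This scaling takes no account of sampling, so the part of the depth difference in the losses was not tested.

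The lost intronic peaks were mostly weak. Their summits held a median of 19 reads (quartiles 14 and 28, highest 165), against 37 in kept and 13 in gained intronic peaks. Their median fold over local background was 4.86, against 7.98 and 4.39. Median width was 286 bp for lost, 457 bp for kept and 250 bp for gained peaks. Of lost peaks, 38.0% had a −log10 q of 10 or more, compared with 78.5% of kept and 15.7% of gained peaks. Only 156 lost peaks (0.638%) held at least 100 reads.

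**Figure D1:**
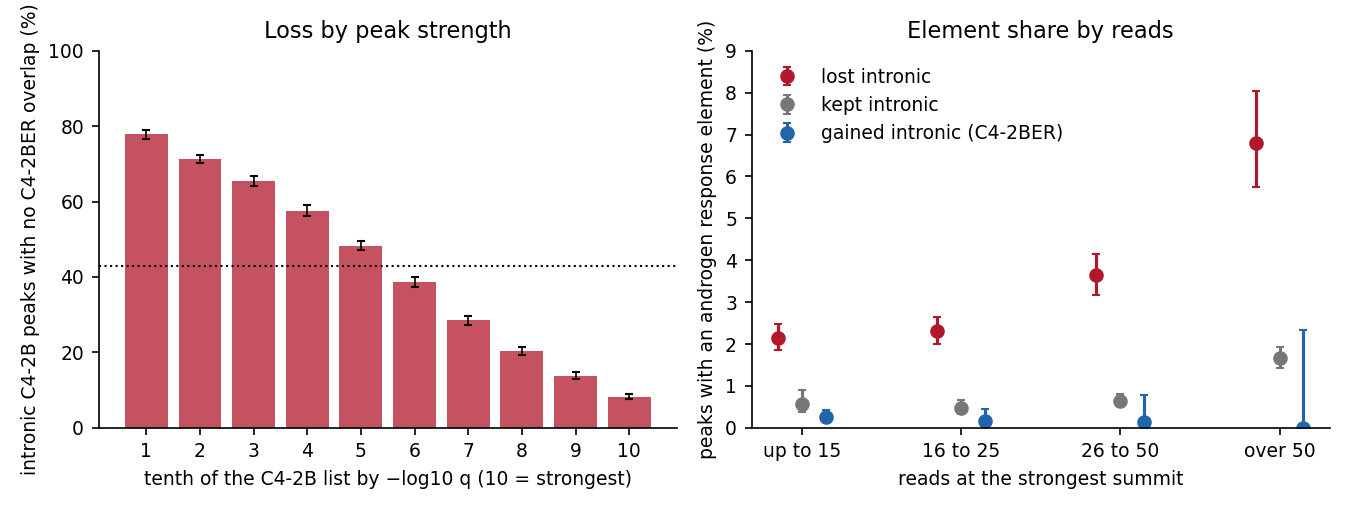
Left, share of intronic C4-2B peaks without a C4-2BER overlap by decile, with 95% intervals and the overall share as a dotted line. The deciles are of the intronic C4-2B peaks by −log10 p, although the axis names the C4-2B list and −log10 q. The share falls from 77.9% in the weakest decile to 8.21% in the strongest. Right, share of lost, kept and gained intronic peaks with an androgen response element by reads at the summit, with 95% intervals; the lost peaks lie above the kept ones in each bin, at 6.80% against 1.66% over 50 reads.

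The share lost fell with strength among the intronic C4-2B peaks. These peaks alone were put into deciles by −log10 p. In the weakest decile 77.9% had no C4-2BER overlap, and in the strongest 8.21% (467 of 5688). Strength is set by the same reads that decide whether a peak was called. Kept peaks were also weaker in C4-2BER. After scaling for depth, the summit reads of the C4-2BER peak divided by those of the C4-2B peak had a median of 0.784 over the 32408 kept intronic peaks, and 70.8% were below 1.

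The distance from a lost peak to the nearest C4-2BER peak had a median of 6535 bp, with quartiles of 2482 and 14296 bp. It exceeded 500 bp for 91.5% and 50 kb for 3.01% of lost peaks. The same distance was not measured for other intron positions. These values therefore do not show whether lost peaks lie farther away than other positions. At the edges of the rule, 7 lost peaks lay at most 10 bp from a C4-2BER peak, with a median of 13 reads, and 13 kept peaks overlapped by at most 10 bp, with a median of 18 reads. At the limit of 2000 bp from a TSS, the lost peaks at most 100 bp beyond it had a median of 31.5 reads, and 80 lost peaks at most 100 bp inside it, with a median of 28 reads, were left out.

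The strongest lost intronic peak lay in intron 25 of MGAM2, a maltase-glucoamylase relative, at chr7:142166090-142167178. Its summit held 159 reads, with a −log10 q of 141, and the nearest C4-2BER peak was 6735 bp away. SNX25, a sorting nexin, followed with 134 reads in intron 13, and C10orf90 with 140 reads in intron 2. DIAPH2, a formin that builds actin filaments, held the highest fold of all lost peaks, 23.8, with 113 reads in intron 25. RAB3C, a small GTPase of secretory vesicles, had 143 reads in intron 2. TACC2, a centrosome-associated protein, had 145 reads in intron 5. ASIP, the agouti signalling protein, had 141 reads in intron 3. CEPT1, an enzyme of phospholipid synthesis, had 111 reads in intron 2, and an unnamed gene, ENSG00000288591, had 133. All of these ranked at or above the 98.0th percentile of the whole C4-2B list.

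Androgen response elements were more frequent in lost than in kept or gained intronic peaks. Within 100 bp of the summit, GNACANNNTGTNC on either strand was found in 708 lost intronic peaks, or 2.90% (2.69 to 3.11). The share was 0.953% (0.853 to 1.07) in kept peaks, 0.229% (0.150 to 0.350) in gained peaks and 0.241% (0.202 to 0.288) in 50163 windows of the same length in introns away from any peak. Over all C4-2B peaks it was 1.56%. Kept peaks with the element held a median of 63 reads and lost ones 24. The element became more frequent with strength, from 2.15% of lost peaks with up to 15 reads to 6.80% of those with over 50. At equal reads the lost peaks stayed above the kept ones, which went from 0.577% to 1.66% over the same bins. The order lost above kept above gained also held in each of 4 bins of GC content, where the lost share ran from 1.92% to 3.08% and the kept share from 0.726% to 1.32%.

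The simpler motif AGAACA, a single arm of the element that overlaps many full matches, was less selective. It occurred in 23.8% of lost, 18.1% of kept and 14.4% of gained peaks, and in 15.7% of windows away from peaks. At least 2 copies were found in 3.50% of lost, 2.00% of kept and 1.22% of gained peaks. When 1 fixed letter of the full element was allowed to differ, a choice made after the data were seen, the shares were 18.6%, 10.8%, 6.29% and 5.88% for lost, kept and gained peaks and windows away from peaks. Lost peaks stood above kept and kept above gained ones in each case, with a smaller ratio of lost to kept for the looser letters. Windows away from peaks lay above gained peaks for AGAACA and below them with 1 differing letter.

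The element lay close to the summit. In lost peaks with a match, 48.0% (44.4 to 51.7) had it within 25 bp of the summit, against 39.2% (33.9 to 44.7) of kept peaks with a match and 24.0% of windows away from peaks, where the window centre stands in for a summit. Among the exact 13-letter matches, GTACAGTATGTAC was the most frequent in lost peaks, with 18 of 724 matches there (2.49%), 5 of 312 in kept (1.60%) and 0 of 21 in gained peaks. GAACACAGTGTTC followed with 12 (1.66%), 4 (1.28%) and 1 (4.76%). The 708 peaks lay in 686 genes, and ANKRD28, PRKCH and SMYD3 had the most, 3 each.

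**Figure D2:**
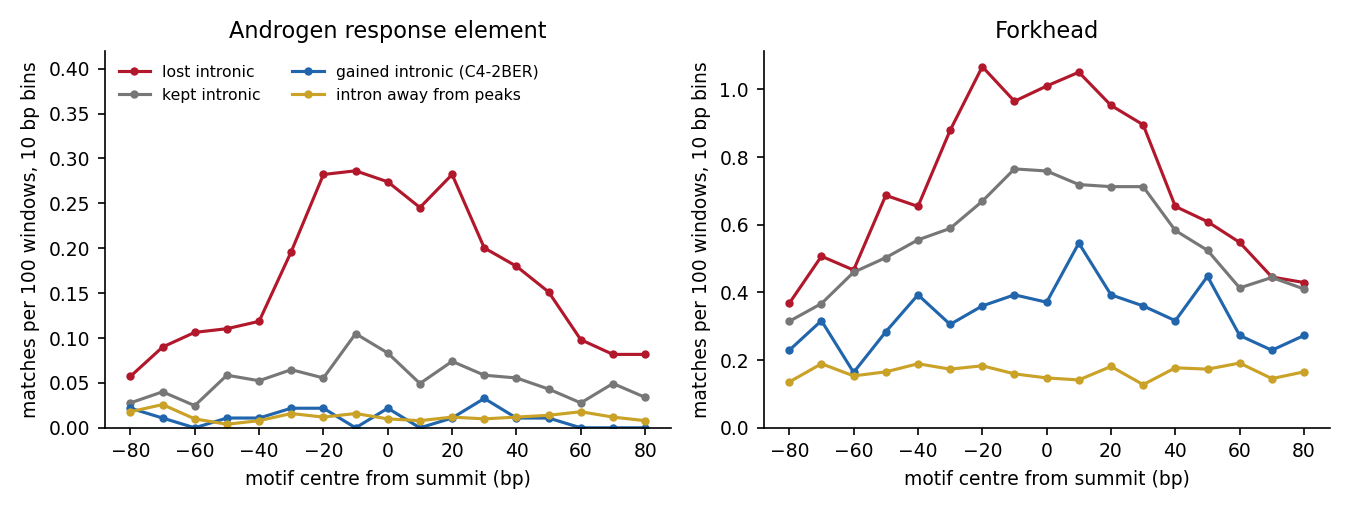
Matches per 100 windows in bins of 10 bp, by the distance of the motif centre from the summit (bp), for the androgen response element (left) and the forkhead motif (right) in lost, kept and gained intronic peaks and in intron windows away from peaks. Both motifs pile up near the summit of lost peaks, with 2.90% of lost peaks holding the element and 12.2% the forkhead motif within 100 bp, and both stay flat away from peaks.

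The forkhead motif TGTTTAC, searched on both strands, occurred in 12.2% (11.8 to 12.6) of lost, 9.72% (9.41 to 10.1) of kept and 6.01% (5.54 to 6.51) of gained intronic peaks, and in 3.04% of windows away from peaks. The lost peaks exceeded the kept ones in each bin of reads, for example at 15.6% against 12.3% over 50 reads. With GC content held, they did so only up to 50% GC. In the bin of 50 to 60% GC the shares were 6.25% in lost and 7.03% in kept peaks, and above 60% they were 1.68% and 2.74%, the reverse order. The lost windows had a median GC content of 44.8% and the kept and gained ones 47.3%. A forkhead match was present in 8.90% (7.02 to 11.2) of lost peaks with the element and in 12.3% of those without it.

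NFI, a factor family with a palindromic site, had the next highest ratio of lost to kept, 1.68, but on 19 lost and 15 kept peaks, with shares of 0.0777% (0.0498 to 0.121) and 0.0463% (0.0281 to 0.0764) whose intervals overlap. The SOX letters AACAATG occurred in 4.22% of lost (3.97 to 4.48), 3.61% of kept (3.42 to 3.82) and 3.10% of gained peaks, and in 4.04% of windows away from peaks. CTCF, the insulator protein whose sites are known to be shared widely between cell types, had a match in 0.585% of lost peaks, 5.06% of kept and 2.06% of gained ones. The SP/KLF letters GGGCGG were found in 3.46%, 6.88% and 7.41%, and are rich in GC. The GRHL letters AACCGGTT, of an epithelial factor family, were rare, at 0.106%, 0.275% and 0.0437%. HNF4, a nuclear receptor of gut and liver, had CAAAGTCCA in 0.282%, 0.305% and 0.753%. AP-1 (TGANTCA) stood at 11.0%, 11.1% and 9.72%, and the HOXB13 letters CCAATAAA at 1.56%, 1.64% and 1.45%, so for neither did the intervals separate lost from kept peaks. The letters AGATAA, bound by the GATA family, occurred in 14.9%, 12.6% and 10.5%, but in 14.8% of windows away from peaks as well. Those windows had a lower median GC content, 39.8%, and were not matched for it. Up to 40% GC the letters occurred in 24.0% of lost and 23.5% of kept peaks. The shares were 15.3% and 15.1% at 40 to 50% GC, 6.91% and 5.68% at 50 to 60%, and 1.28% and 1.65% above 60%.

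Without any motif in mind, all 4270 words of 7 letters present in at least 500 lost windows were compared, the examples being chosen after their values were seen. The words most frequent in lost relative to kept peaks were ATGTACC, with 2.49% against 1.30%, and AGAACAT, with 6.11% against 3.53%. AGAACAT contains the arm AGAACA, and ATGTACC reads GGTACAT on the other strand, close to an arm. At the other end stood CCACTAG, with 2.31% against 5.01%, and AGAGGGC, with 4.04% against 7.81%, both of which occur within known CTCF sites. Relative to gained peaks, the highest ratio was that of GTAAATA, a forkhead-like word, at 9.71% in lost and 4.20% in gained peaks.

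Repeated DNA was visible among the strongest lost peaks. Of 587 words of 20 letters found in at least 20 lost windows, a word with a single arm occurred in 42 lost peaks on 16 chromosomes, in 4 kept peaks, in 1 gained peak and in 1 of the 50163 windows away from peaks. The 42 peaks held a median of 26 reads, from 11 to 143. Each held AGAACA at least once and 35 held it at least 2 times, while none held the full element. A second word, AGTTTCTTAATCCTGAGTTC, occurred in 25 lost peaks and in neither kept nor gained ones, but in 20 windows away from peaks. ELAPOR2 had its strongest copy, with 101 reads. These words were chosen after their values were seen. RAB3C and DIAPH2, both among the 10 strongest lost peaks, hold copies of the first word. Reads in copies of a repeat are only those that passed the authors' mapping filter.

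The lost intronic peaks lay in 8007 protein-coding genes, or 45.8% of the 17488 genes with any intron sequence over 2000 bp from a TSS, here called eligible intron. There were 3237 genes with a single lost peak, 1570 with at least 5, 436 with at least 10 and 75 with at least 20. Over 1124 Mb of eligible intron, the pooled density was 0.0217 lost peaks per kb. The count followed length. Host genes had a median of 68.7 kb of eligible intron and the other genes 9.72 kb, and the count rose with eligible length (Spearman's rho 0.718 across genes, which are not independent replicates). The 801 genes with the most lost peaks, a decile of the hosts, held 37.0% of all pairs of a gene and a lost peak. A further 4.27% of lost peaks lay in more than 1 gene and were counted in each.

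By count, PTPRN2 came first with 62 lost peaks (0.0597 per kb of eligible intron), beside 54 kept and 11 gained. It encodes a phosphatase-like protein of secretory granules. PDE4D, a cyclic AMP phosphodiesterase, had 48 lost, 53 kept and 9 gained. KAZN, a desmosome-associated protein, had 40, 27 and 8. NRXN3, a presynaptic neurexin, had 39, 30 and 2. RORA, a nuclear receptor gene on chromosome 15, had 38 lost and 21 kept peaks and 1 gained. Chromosome 15 as a whole had the fewest gained peaks per Mb of eligible intron, 4.99. PPP3CA, the catalytic subunit of calcineurin, had 36, 26 and 5 in 317 kb. Then followed CAMTA1, a calmodulin-binding factor, with 33 lost peaks, the synaptic scaffold DLG2 with 32, and ankyrin-G (ANK3) and the neuronal adhesion gene CNTNAP2 with 31 each. CNTNAP2 and DLG2 were below the pooled density, at 0.0136 and 0.0152 per kb, so their high counts stood on long introns.

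**Figure D3:**
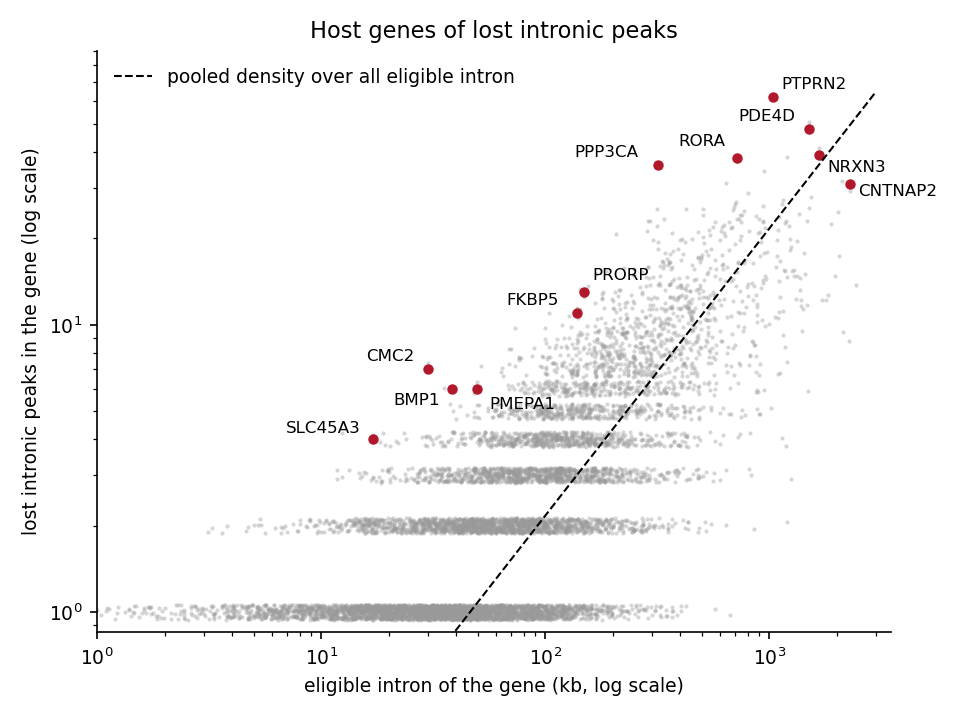
Number of lost intronic peaks in each host gene against its eligible intron (kb), both on log scales, with points jittered up and down; the dashed line is the pooled density of 0.0217 per kb. PTPRN2 and PPP3CA lie above the line, at 0.0597 and 0.114 per kb, and CNTNAP2 lies below it, at 0.0136.

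PPP3CA stood out by density among these, at 0.114 per kb, and a run of 10 lost peaks without a kept one between them spanned 33.0 kb. Its lost peaks were shallow over a high local background. Of its 36, only 4 reached a −log10 q of 10, and the background under them had a median of 5.22 times the floor, the lowest local background of the C4-2B list, against 2.84 times the C4-2BER floor under the 31 C4-2BER peaks of the gene. Copy number was not measured, and the part of this background in the density was not tested. RORA was of the other kind. Its 38 lost peaks had a median background at the floor (1.00 times), 18 of them reached a −log10 q of 10, and the strongest, chr15:60722190-60723047, had a −log10 q of 95.6, a fold of 15.3 and an androgen response element 91 bp from its summit, and the nearest C4-2BER peak was 29482 bp away.

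By density among genes with at least 5 lost peaks, CMC2, a mitochondrial protein, came first at 0.233 per kb (7 lost peaks, 1 kept). CHPT1, of phosphatidylcholine synthesis, followed at 0.170 and BMP1, a procollagen-processing protease, at 0.157. LPAR3, a lysophosphatidic acid receptor, had 0.137, the carbonic anhydrase CA12 0.135, LMO1 0.133, the G protein subunit GNA13 0.129, and the brain form of glycogen phosphorylase (PYGB) and SMCO4 0.125 each. GNA13 had a single gained peak, and the others named here had none. Local background under the lost peaks of these genes ranged from 1.00 times the floor in GNA13 to 5.75 times in CMC2, with 5.07 in CHPT1, 4.83 in PYGB and 4.19 in LPAR3, while the median over all lost peaks was 1.05. Its part in the density was not tested. CMC2 overlaps a readthrough gene, ENSG00000286221, in which the same peaks were counted.

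Long runs without a kept intronic peak occurred in a few genes. Promoter and exon peaks were not counted in them. PRORP, a subunit of mitochondrial RNase P, had 13 intronic C4-2B peaks over 136 kb, and all 13 were lost, including ones of 88 and 83 reads. A single C4-2BER peak of 8 reads lay among them. Its promoter had a peak in both lists. RALYL, an RNA-binding protein gene, had a run of 13 over 246 kb and 23 lost of 27 in all, LRP1B, a lipoprotein receptor relative, 11 over 394 kb, and ADAMTS2, a procollagen protease, 10 over 52.8 kb. Among 3943 genes with at least 5 intronic C4-2B peaks, the median share lost was 42.9%, 22 genes had lost all and 101 had lost none. In the 22, the 13 lost peaks of PRORP were counted again in an overlapping gene, ENSG00000258790. The 22 also included NUBPL (8 lost), CLASP2 and USP25 (7 each), VPS13C (6), and CDH2, the neuronal cadherin, with 5 lost peaks of up to 39 reads and 2 gained ones.

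FKBP5, a co-chaperone of steroid receptors, had 11 lost and 2 kept intronic peaks, 0.0793 lost per kb and no gained peak. The strongest by −log10 q, 108, was the peak whose element is printed above, in intron 5, at chr6:35610762-35611573. It held 125 reads at a fold of 16.9, and the nearest C4-2BER peak was 8126 bp away. Downstream of the canonical TSS the other lost peaks held 11 to 34 reads. Upstream of the canonical TSS, in introns of longer transcripts, 3 lost peaks held 153, 105 and 89 reads, but over a raised background, with folds of 6.16, 2.52 and 2.16. The part of that background, or of copy number, which was not measured, was not tested. The kept peak with an element held 51 reads in C4-2B and 22 at the nearest summit of C4-2BER, and the other kept peak held 43 and 15. Among intronic peaks alone, 10 lost peaks followed each other over 123 kb, a stretch that also holds the canonical TSS. The promoter of the gene had a peak in both lists.

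**Figure D4:**
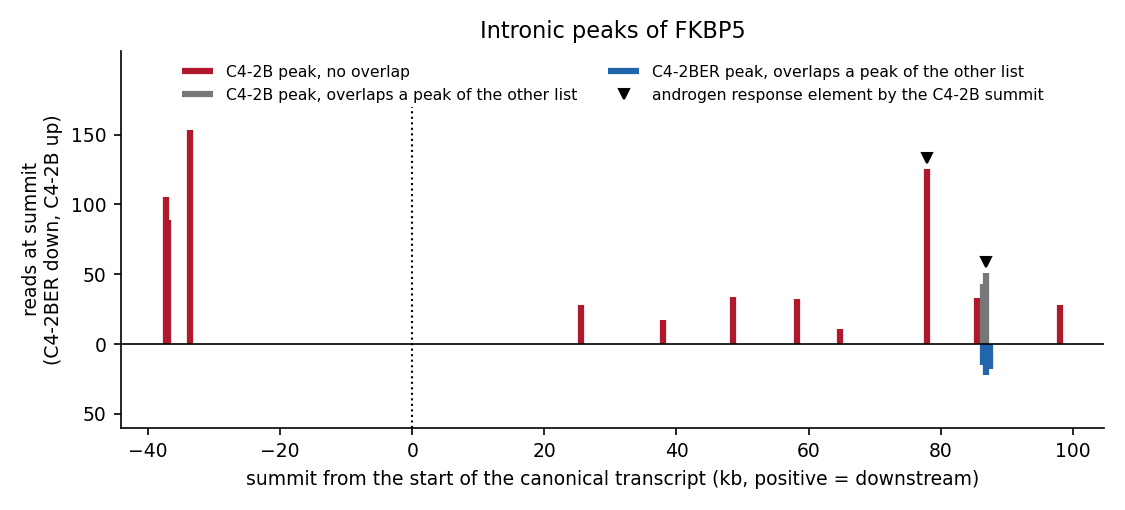
Intronic peaks of FKBP5 by the distance of their summit from the start of the canonical transcript (kb) and the reads at the summit, C4-2B upward and C4-2BER downward; triangles mark C4-2B summits with an androgen response element. The C4-2B peak of 125 reads has no C4-2BER counterpart, and C4-2BER peaks are present only at the 2 kept peaks, with 15 to 22 reads.

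Genes known to respond to androgen held more lost peaks per kb than genes in general. Of 62 such genes with eligible intron, 50 (80.6%, 69.1 to 88.6) held at least 1, against 45.8% of all genes. These genes were also longer, with a median of 60.6 kb of eligible intron against 24.3 kb over all genes. The part of length in the 80.6% was not tested. Their lost peaks numbered 238, with 267 kept and 48 gained. The pooled density was 0.0404 lost per kb against 0.0218 over all genes, while gained peaks stood at 0.00815 per kb in both. Their share lost, 47.1%, was near the 43.0% of all intronic peaks, so these genes held more intronic C4-2B peaks of both kinds per kb. In APPBP2 4 of 4 were lost with none gained, and in SLC45A3, a prostate transporter also called prostein, 4 of 4 with 1 gained. PMEPA1, an inhibitor of TGF-beta signalling, lost 6 of 8, ELOVL5, a fatty acid elongase, 8 of 14, and TMPRSS2, the serine protease of the prostate, 2 of 6. ABHD2 kept 19 of 27 and STEAP2, a metalloreductase, 11 of 12. Among these 238 lost peaks, 10 (4.20%, 2.30 to 7.56) held an element, in ABCC4, ABHD2, APPBP2, ARID5B, FKBP5, INPP4B, IQGAP2, PDLIM5, STK39 and TNFAIP8. Background was raised in some, at 12.5 times the floor under the lost peaks of ABHD2, 7.54 in TMPRSS2 and 4.13 in PMEPA1, with SLC45A3 between the last ones. Its part in the counts was not tested.

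The list of luminal genes and androgen receptor cofactors was closer to the rest. Of 23 genes, 16 (69.6%) held 90 lost, 125 kept and 35 gained peaks, at 0.0303 lost per kb. GRHL2, an epithelial factor, had 7 lost and 15 kept, ZBTB7C 16 and 15, and the coactivator NCOA1 8 and 7. The keratin gene KRT8 lost both of its 2.

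Of 22 neuroendocrine genes with eligible intron, 7 (31.8%, 16.4 to 52.7) held a lost peak. The share of all genes, 45.8%, lies inside this interval. Together the 22 genes held 16 lost, 48 kept and 17 gained peaks, and 25% of their intronic C4-2B peaks were lost. The 7 genes with a lost peak included CACNA1A, a calcium channel, with 4. RET, a receptor kinase, and KCNB2, a potassium channel, had 3 each. SNAP25, of vesicle fusion, and ONECUT2 had 2 each, and SRRM4, a neuronal splicing factor, and CELF3 had 1 each. Over the 22 genes the density was 0.0106 lost and 0.0113 gained per kb, so unlike the pooled values for all genes the gained were not fewer. With so few peaks the share lost is poorly fixed.

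**Figure D5:**
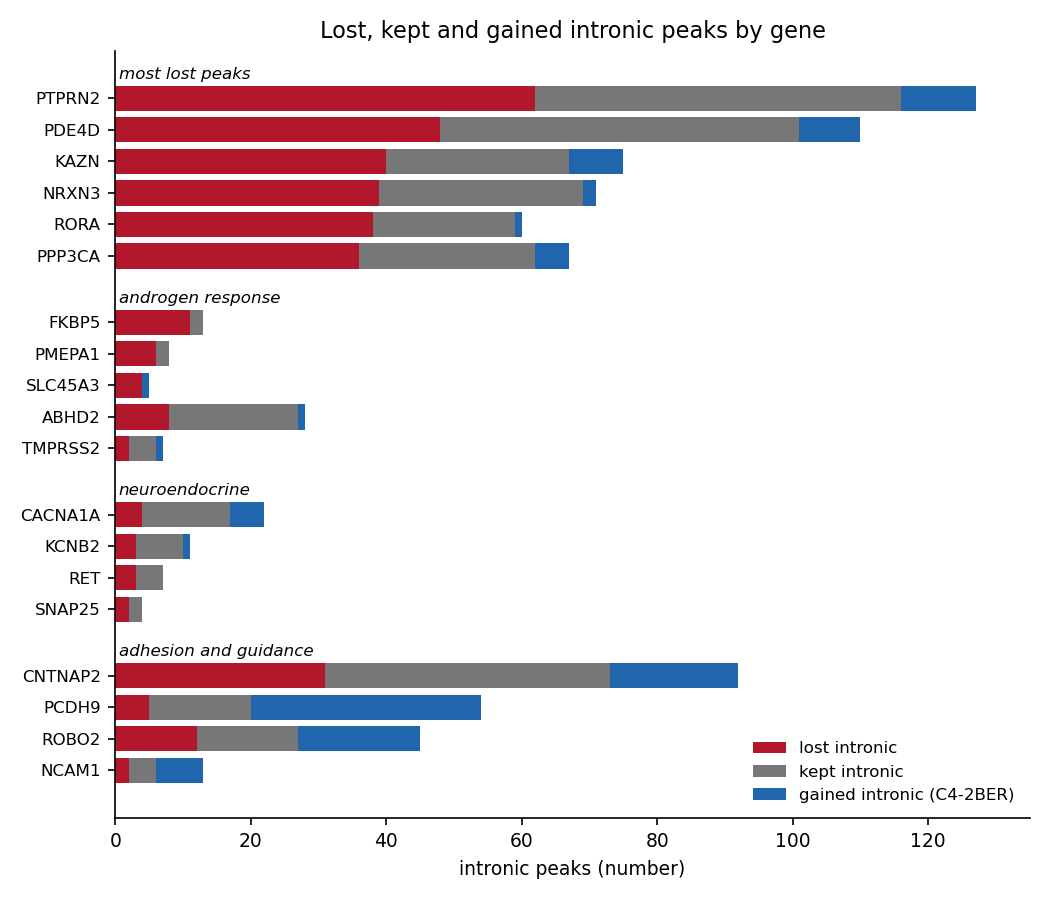
Numbers of lost, kept and gained intronic peaks in named genes, as stacked bars; the top group holds the 6 genes with the most lost peaks and the others are examples from the gene lists, picked after their values were seen. FKBP5 has 11 lost, 2 kept and 0 gained peaks, and PCDH9 has 5, 15 and 34.

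Neuronal adhesion and guidance genes are long, with a median of 362 kb of eligible intron, and 63 of 66 (95.5%) held a lost peak. Together they held 609 lost, 661 kept and 293 gained peaks. Per kb they were below all genes for lost peaks, at 0.0165 against 0.0218, and close for gained ones, at 0.00792 against 0.00815. Of their intronic C4-2B peaks 48.0% were lost, against 43.0% over all genes, so the lower density came with fewer intronic C4-2B peaks per kb and not with a lower share lost. Members differed widely. CNTN3, a contactin, had 11 lost, 6 kept and 0 gained, CADM2, a synaptic adhesion molecule, 23, 14 and 1, and UNC5D, a netrin receptor, 12, 4 and 1. In PCDH9, a protocadherin, there were 5 lost and 34 gained, in ROBO2, a Slit receptor, 12 and 18, and in NCAM1, the neural cell adhesion molecule, 2 and 7. DAB1, an adaptor of Reelin signalling, had 27 and 18. Lost and gained intronic peaks thus stood side by side within this list.

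Of 21 genes that the study names and that have eligible intron, 16 held 89 lost, 99 kept and 77 gained peaks, at 0.0186 lost and 0.0161 gained per kb. The study named them with its own results in view, so the list is not independent of these data. PAX5, a transcription factor of B cells and developing brain, had 7 lost peaks of 9 to 15 reads, 9 kept and 7 gained. KLF12 had 2, 2 and 9, and RB1, the retinoblastoma gene, 5, 4 and 1. As a reference, of 38 broadly expressed genes 21 (55.3%) held 38 lost, 47 kept and 12 gained peaks, at 0.0245 lost per kb.

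Most lost peaks lay in genes whose promoter was open in both lines. Of the 24452, 90.9% lay in a gene with a promoter peak in both lists, as did 90.3% of kept and 88.4% of gained intronic peaks, and 1.52% lay in a gene with a promoter peak in C4-2B only. By gene, 6843 of the 8007 hosts had one in both lists, 180 in C4-2B only, 268 in C4-2BER only and 716 in neither. Of 455 genes with eligible intron and a promoter peak in C4-2B only, 180 held a lost peak. Of 568 with one in C4-2BER only, 268 did, against 45.8% of all genes with eligible intron. Gained peaks lay in 4726 of the 17488 genes with eligible intron. Lost and gained peaks shared 3687 genes, and 4320 genes had lost but no gained peaks.

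Position within genes did not set the lost peaks apart much. The first intron of the canonical transcript held 23.2% (22.7 to 23.7) of lost, 21.7% of kept and 22.2% of gained peaks. These shares are over all peaks of a class, of which 12.5%, 13.5% and 13.4% lay outside canonical introns. First introns are 23.0% of eligible canonical intron length, a base without such positions, so this value is not directly comparable. Lost peaks lay over 50 kb from any TSS in 31.5% of cases, kept ones in 29.0% and gained ones in 33.4%. Another lost peak within 10 kb was found for 39.7% of lost peaks, against 45.8% and 21.9% for kept and gained peaks with their own class, which also differ in number.

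Chromosomes differed in the balance of lost and gained peaks. The share of intronic C4-2B peaks lost ranged from 34.5% (32.0 to 37.1) on chromosome 19 to 47.2% (44.4 to 49.9) on X. On chromosome 15 there were 1002 lost and 185 gained, or 5.42 lost per gained, against 1.79 on chromosome 19 and at most 3.34 on the others. Chromosome 15 had 27.0 lost and 4.99 gained per Mb of eligible intron, the latter the lowest of all, while its share lost, 45.5%, was not extreme. The scaled ratio of C4-2BER to C4-2B reads at kept peaks had its lowest median on chromosome 15, 0.714, and its highest on chromosome 19, 0.962. The other chromosomes did not all follow, since chromosome 13 had the next lowest median, 0.736, with 2.17 lost per gained. Copy number was not measured, and its part in these values was not tested.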

How the data were processed

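ATAC-seq was analysed from 4 libraries, 2 of C4-2B and 2 of C4-2BER. Following the study's methods, reads were trimmed with cutadapt, aligned to hg38 with Bowtie2, filtered to a mapping quality of at least 10, cleared of duplicates with Picard, merged per line and called with macs2 without a model, extended to 200 bp. The submitters' processing notes also list bedtools 2.17 and FastQC. The macs2 version is not given in the sources used here. Each deposited row is a summit. The deposited fold is a ratio of summit reads to local background with 1 added to both, and the authors' −log10 p and −log10 q of a summit come from macs2 and hold within 1 list. A further column is the summit offset. The merged lists have no per-library values.

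Rows of an interval were joined, with the values of the summit of highest −log10 p. Fold and −log10 p were solved for whole reads in 100% of summits. The step recovered 100% of 19995 simulated C4-2B summits. The lowest local background, here called the floor, was 2.24 (C4-2B) and 1.87 (C4-2BER) reads per 200 bp, or about 30.2 and 25.2 M reads if the genome size used was 2700000000 bp. Genes, exons and TSSs came from GENCODE release 44 and sequences from the hg38 reference. Eligible intron is gene body outside the gene's own exons and over 2000 bp from every TSS. Gene-level counts include a peak in each overlapping gene. Motifs were matched as exact letters on both strands within 100 bp of the summit, in windows of 201 bp. The windows away from peaks were set every 20000 bp in eligible intron, at least 500 bp from any peak. Chromosome Y is left out of the values by chromosome. Work was done in python 3.11.15 with numpy 2.4.6, pandas 2.3.3, scipy 1.17.1, pysam 0.24.0 and matplotlib 3.10.9. Alternatives were a −log10 q of at least 10, other overlap, TSS, exon and position rules, scaled depth and a wider motif window.

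The regions, the gene lists and the motifs were chosen with earlier results of these data known. Named genes are the 10 hosts with most lost peaks, the 10 densest with at least 5, and genes of the lists. Named peaks are the 10 with the highest −log10 q. Genes of long runs, genes with all peaks lost, and words were chosen after their values were seen. No test was run, since each line has 1 merged list. A few genes and sequences that these rules select are not reported here.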

Additional observations from a re-analysis of the deposited data

How the results depend on the processing

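No paired analysis was possible because each line has a single list from its pooled libraries, and so no library could be left out. Of 75 values recomputed for 9 results under 10 alternatives, 59 stayed within the 95% interval of a share or within 1.5 times a count. With only C4-2B peaks of a −log10 q of at least 10, there were 9298 lost peaks in 4954 genes, 26.8% of intronic C4-2B peaks were lost, 4.38% held an androgen response element, 15.5% a forkhead motif and 24.4% lay in a first intron. The share lost was 39.4% when C4-2BER peaks within 500 bp were taken as shared, 51.3% when only a reciprocal overlap of 50% was, 42.4% with canonical TSSs only and 44.0% with the whole interval outside exons. The share in a first intron was 21.9% beyond 5000 bp from every TSS, where 91.3% of lost peaks lay in genes with open promoters in both lines, and 24.1% with whole intervals outside exons. A motif window of 250 bp gave 3.60% for the element and 17.5% for the forkhead motif, and 1 differing letter, chosen after the data were seen, gave 18.6%. Scaling C4-2B to the C4-2BER depth moved none of the 9 results outside these limits, but it removes only peaks that fall under the calling limit and takes no account of sampling. No summit below 8 reads was listed for C4-2B or below 7 for C4-2BER, so a region that is open but under the calling limit in C4-2BER counts as lost.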
